A study of Mus musculus with 18 samples.

Results

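The proteasome subunit genes were described in nuclear and cytoplasmic RNA of mouse skeletal myofibers. Members were the genes whose name on the array begins with Psma to Psmg followed by a digit and whose description does not name a pseudogene. The rule took 49 of 35527 gene names and 60 of 55681 probe names. It used names only, so no measured value chose a member. Psmc3ip, a cofactor of meiotic recombination and not a proteasome subunit, was taken by the rule and is counted among the members but in no class of subunits.

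Intact myofibers were pooled and lysed, the nuclei were pelleted, and RNA of the pellet and of the supernatant was hybridised to single-channel Agilent arrays. There were 6 groups of 3 arrays: nuclei and cytoplasm of EDL and of tibialis anterior (TA), which are fast muscles, and of soleus, which is slower. All mice were CD1 females of 3 months, and the labels name no treatment. A sample was a pool of 5 to 10 fibers.

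EDL and soleus pools came from mice 3 and 4, 5 and 6, and 7 and 8. TA cytoplasm came from mice 5 and 1, 5 and 2, and 9, so replicates 1 and 2 share mouse 5. TA nuclei came from mice 1, 2 and 3, each on its own. A pool averages its fibers and gives no value for a single fiber type. A nuclear pellet can hold nuclei of cells attached to the fiber.

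The proteasome degrades proteins that carry ubiquitin. A barrel of alpha and beta subunits holds the proteolytic sites, and a regulatory particle of a base, with its ring of ATPases, and a lid binds ubiquitin, removes it and unfolds the substrate. In muscle this route is known for the breakdown of myofibrillar proteins during atrophy. In cells exposed to interferon, immune versions of the catalytic beta subunits replace the standard ones.

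Quantile-normalized log2 intensities are called levels below, and nuclei minus cytoplasm a difference. A difference is relative to the rest of the RNA in its fraction, since the amount of RNA per fraction was not measured on the arrays. A gene was read on its brightest probe and was called when limma's adjusted p was under 0.05. In bulk RNA, fewer cells of a type and less RNA per cell cannot be told apart.

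The cytoplasm arrays of EDL and soleus and TA cytoplasm 1 were on slide 1, while EDL and soleus nuclei were on slide 2. In EDL and soleus the effect of the slide and that of the fraction cannot be told apart. TA cytoplasm 3 was on slide 3, and TA cytoplasm 2 and the TA nuclei were on slide 4, both slides with the same scan date. Soleus cytoplasm 2 stood nearest to the nuclei on the first principal component of all probes, which held 53.4% of the variance, at -5.86, while the rest of the cytoplasm ran from -151.14 to -78.87. Among the members, the median SD between arrays was 0.09 in each nuclear group and 0.19, 0.24 and 0.51 in EDL, soleus and TA cytoplasm. The Psme1 probe has 10 spots per array, and the SD between arrays of its mean over spots was 0.023, 0.045 and 0.25 in EDL, soleus and TA nuclei. The SD of its single spots within an array was 0.071, 0.103 and 0.067 in those groups.

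Myofiber markers were measured on every array. Of 10, among them Acta1, Ckm and the myosin heavy chains, 9 were higher in nuclei over the 3 muscles and none was lower. All 5 nuclear RNAs of the list were higher in nuclei, with a median difference of 2.78. Markers of other cells moved as well: all 8 endothelial genes were higher in nuclei (median 0.98), as were 6 of 7 fibroblast and 5 of 6 Schwann cell genes (medians 0.90 and 0.95), while 9 of 11 leukocyte genes were lower (median -0.81). The summed endothelial level was 7570 to 7810 in EDL nuclei and 4100 to 4750 in EDL cytoplasm, 6690 to 7280 against 4030 to 7520 in soleus, and 8700 to 10100 against 2140 to 3660 in TA, in intensity units. All 8 endothelial markers were well above background on every array. Summed fibroblast levels were 70900 to 73700 in EDL nuclei and 27700 to 35400 in EDL cytoplasm, 64900 to 67100 against 33200 to 45900 in soleus, and 38000 to 41500 against 19600 to 29900 in TA. Summed Schwann cell levels were 3700 to 3870 against 1350 to 1450 in EDL, 2150 to 2370 against 1300 to 1730 in soleus, and 1390 to 1580 against 757 to 830 in TA. Summed leukocyte levels were 32500 to 35600 against 38600 to 39900 in EDL, 32600 to 42200 against 38800 to 42200 in soleus, and 30500 to 39600 against 37000 to 42200 in TA. Of the satellite cell genes 1 of 4 tested was higher and 1 lower, and of the erythroid genes 1 of 3 was lower. The erythroid genes moved differently by muscle. All 3 were lower in soleus nuclei (median -1.37), 2 of 3 were higher in TA nuclei (median 0.95), none was called in EDL (median -0.47), and 2 of 3 were called in the test of muscle dependence. Their summed levels were 10800 to 11200 in EDL nuclei against 13200 to 19900 in EDL cytoplasm, 6170 to 6700 against 12300 to 27300 in soleus, and 11700 to 12500 against 8120 to 10400 in TA. The part of these cells in the differences below was not tested.

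Over the 3 muscles, transcripts of proteasome subunits were mostly higher in the nuclear fraction. Of the 47 genes tested, 31 were called higher in nuclei, 5 lower and 11 were not called. The background among coding genes read the same way was 39.4% higher and 29.2% lower. The median difference of the members was 0.46, against 0.19 for the coding genes. It ran from -0.66 for Psmb1, a core beta subunit, to 1.07 for Psmd1, the large scaffold of the base. Without scaling between arrays 39 members were higher and 1 lower, and 4 of the 5 lower genes, Psma6, Psmb1, Psmb7 and Psmd11, turned positive, while the median of all probes moved from -0.08 to 0.42.

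The number of calls depended on how the nuclear arrays were counted. Counting each muscle's nuclear arrays as a single sample left 7 members higher and 0 lower (limma), all 7 among the 31. These were the core subunits Psma1, Psma3, Psmb4 and Psmb6, the base subunits Psmc6 and Psmd1, and the assembly chaperone Psmg2. That setting is itself among the 28 alternatives fitted to all 3 muscles, which do not include TA alone on 1 scan date. These members were called higher under each of the others as well. With slide as a random block, 13 were higher and 0 lower, and the median was 0.23. The share of coding genes called was not counted under either setting, so these counts have no background beside them.

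**Figure D1:**
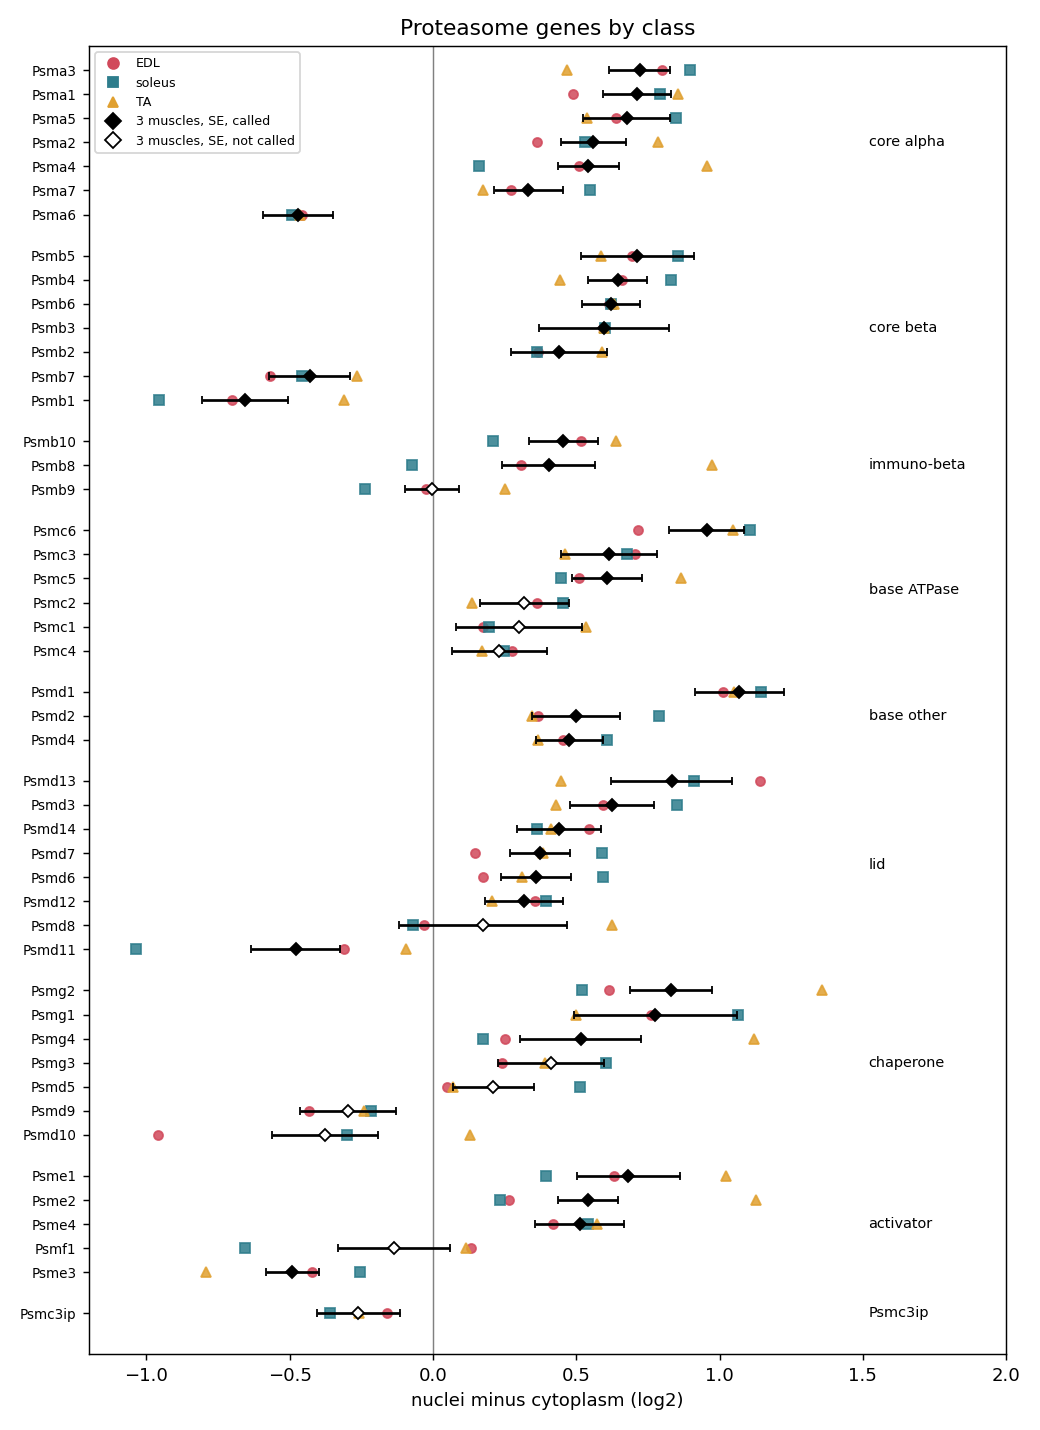
Nuclei minus cytoplasm (log2) of the 47 genes tested, by class and, within a class, by size. Circles, squares and triangles are EDL, soleus and TA. Diamonds with SE bars are the value over the 3 muscles, filled where called. The 31 filled diamonds right of 0 and the 5 left of it are the called genes, and the lower ones are spread over the core, the lid and the activators.

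In the alpha ring, which forms the gate of the barrel, 6 of 7 genes tested were higher in nuclei and Psma6 was lower. The median difference was 0.56. Psma3 was at 11.22, 10.97 and 11.17 in EDL cytoplasm and at 11.93, 11.95 and 11.87 in EDL nuclei. In soleus it was at 11.15, 11.27 and 10.79 in cytoplasm and 11.90, 11.95 and 12.05 in nuclei. In TA it was at 10.98, 11.30 and 11.62 against 11.78, 11.72 and 11.81. The nuclear arrays were above the cytoplasmic ones with no overlap in each muscle. The difference over the 3 muscles was 0.72 ± 0.11 (SE, adjusted p = 2.1e-05, limma), a fold of 1.65.

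Psma6, of the same ring, ran the other way. In EDL it was at 10.66, 10.53 and 10.49 in cytoplasm and at 10.26, 10.08 and 9.97 in nuclei. The soleus levels were 10.44, 10.66 and 10.58 against 9.95, 10.11 and 10.15. Its TA levels were 10.68, 9.78 and 9.82 against 9.57, 9.76 and 9.55. Nuclei were below cytoplasm without overlap in each muscle, and TA cytoplasm 1 lay highest. The difference over the 3 muscles was -0.47 ± 0.12 (SE, adjusted p = 0.003, limma), and 0.30 without scaling.

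In the beta rings, which hold the proteolytic sites, 5 of 7 standard subunits were higher and 2 lower, with a median of 0.60. Psmb6, the caspase-like catalytic subunit, was at 11.97, 11.85 and 12.00 in EDL cytoplasm and 12.56, 12.62 and 12.49 in EDL nuclei. In soleus it was at 11.78, 12.10 and 11.63 against 12.44, 12.41 and 12.53. In TA it was at 11.71, 11.16 and 11.22 against 12.02, 12.03 and 11.93. All nuclear arrays were above all cytoplasmic arrays of their muscle, and the 3 differences were nearly the same, at 0.61, 0.62 and 0.63. Over the 3 muscles it was 0.62 ± 0.10 (SE, adjusted p = 6.2e-05, limma).

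Psmb7, the trypsin-like catalytic subunit, had a difference of -0.43 ± 0.14 (SE, adjusted p = 0.014, limma), and of 0.32 without scaling. In EDL it was at 11.16, 11.55 and 11.93 in cytoplasm and 10.71, 11.51 and 10.70 in nuclei, which overlapped. The soleus levels were 11.64, 11.31 and 11.35 against 10.93, 10.85 and 11.14. The TA levels were 11.44, 11.15 and 10.99 against 10.86, 10.82 and 11.11. Only soleus showed no overlap, and no muscle alone was called. Psmb1, a beta subunit without a catalytic site, had the lowest difference of all members. It was at 10.52, 10.47 and 10.75 in soleus cytoplasm and 9.65, 9.74 and 9.49 in soleus nuclei. Its EDL levels were 10.29, 10.84 and 10.19 against 10.13, 9.55 and 9.54. Its TA levels were 10.36, 9.31 and 9.55 against 9.29, 9.43 and 9.57. The fractions did not overlap in EDL and soleus and overlapped in TA. Over the 3 muscles the difference was -0.66 ± 0.15 (SE, adjusted p = 0.0012, limma), and 0.12 without scaling.

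Psmb5, the chymotrypsin-like catalytic subunit, depended on the probe. Both probes lie on chromosome 14 of mm9, on the minus strand, at chr14:55232957-55233016 for A_55_P2144850 and chr14:55233161-55233220 for A_55_P2115068. They start at bases 811 and 607 of the transcript named in the array design. The first 30 of the 60 bases of each are shown in lower case, since this pair gave calls in opposite directions.

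A_55_P2144850: gcggttgtctgcatctctaggtgggtctcc
A_55_P2115068: tactcctatgacctgaaagtggaggaggcc

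On the brighter probe, A_55_P2144850, Psmb5 was at 12.19, 11.86 and 12.05 in EDL cytoplasm and 12.69, 12.78 and 12.69 in EDL nuclei. In soleus it was at 11.82, 12.30 and 11.86 against 12.70, 12.87 and 12.98. In TA it was at 11.92, 13.77 and 13.55 against 13.69, 13.74 and 13.58. The fractions were apart in EDL and soleus, while in TA cytoplasm 2 and 3 were level with the nuclei. On A_55_P2115068 Psmb5 was at 11.95, 11.81 and 11.33 against 11.58, 11.79 and 11.41 in EDL. The soleus levels were 11.54, 11.72 and 11.79 against 11.29, 11.35 and 11.34, and the TA levels 12.20, 11.76 and 11.81 against 11.57, 11.60 and 11.57. There the soleus and TA nuclei were below the cytoplasm without overlap. The difference over the 3 muscles was 0.71 ± 0.20 (SE, adjusted p = 0.0046, limma) on the brighter probe and -0.27 ± 0.11 (SE, adjusted p = 0.038, limma) on the other.

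Of the immune beta subunits, Psmb8 and Psmb10 were called higher in nuclei and Psmb9 was not called. Psmb10, which takes the place of Psmb7, was 0.46 ± 0.12 higher in nuclei (SE, adjusted p = 0.0037, limma), without overlap in any muscle. It was at 9.88, 9.59 and 9.51 against 10.16, 10.17 and 10.19 in EDL, and at 9.64, 9.81 and 9.86 against 10.01, 9.90 and 10.03 in soleus. Its TA levels were 9.55, 10.09 and 10.53 against 10.59, 10.85 and 10.66. Psmb8, which takes the place of Psmb5, was at 8.18, 7.23 and 8.62 in TA cytoplasm and 8.98, 9.08 and 8.90 in TA nuclei, where the fractions did not overlap.

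In EDL Psmb8 was at 8.72, 8.18 and 8.03 against 8.58, 8.61 and 8.67, and in soleus at 8.32, 8.25 and 8.01 against 8.14, 7.92 and 8.31, with overlap in both. Its difference over the 3 muscles was 0.40 ± 0.16 (SE, adjusted p = 0.036, limma) and was called under 16 of the 28 alternatives. Psmb9, which takes the place of Psmb6, overlapped in every muscle. It was at 8.01, 8.06 and 7.86 against 7.97, 8.01 and 7.88 in EDL, and at 8.06, 7.67 and 8.08 against 7.69, 7.58 and 7.83 in soleus. In TA it was at 8.27, 8.02 and 7.96 against 8.27, 8.40 and 8.34, and the difference over the 3 muscles was -0.00 ± 0.09 (SE, adjusted p = 0.98, limma). Psmb11, the beta subunit of the thymus, was well above background in no group, and no value is given for it.

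**Figure D2:**
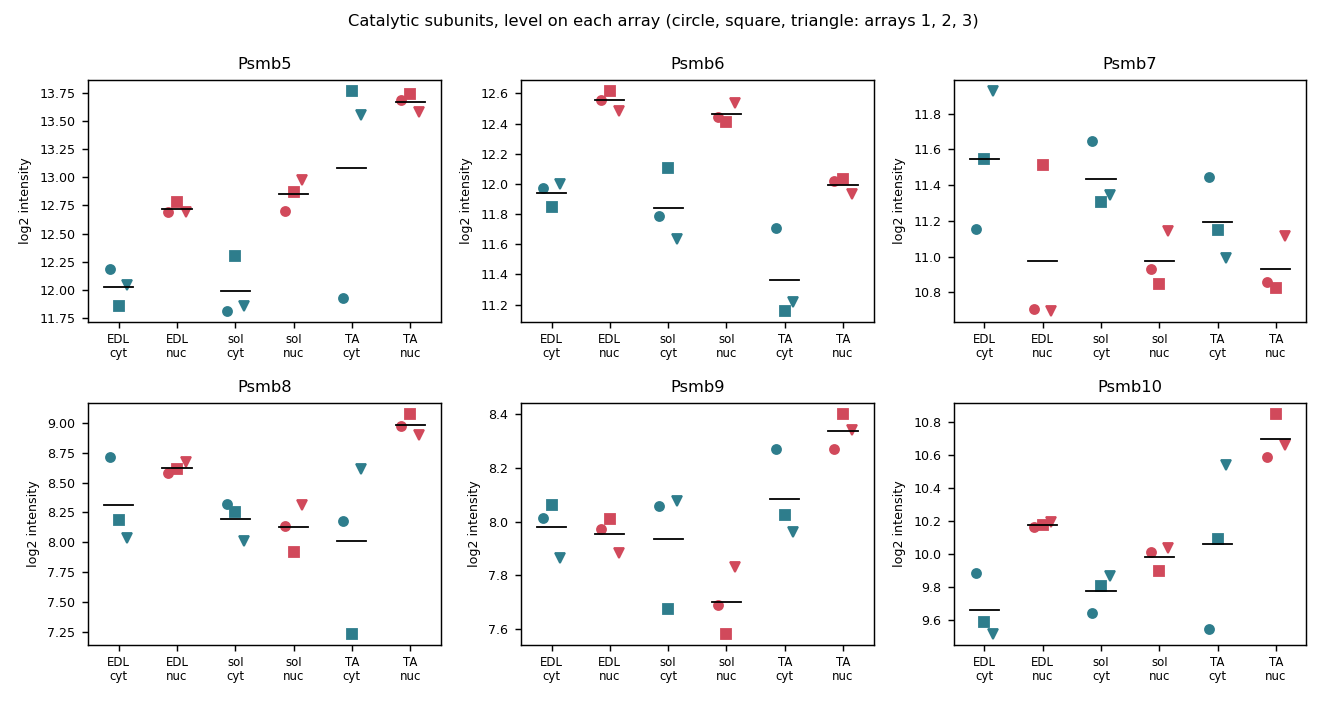
Level (log2 intensity) of the 6 catalytic beta subunits on each array, cytoplasm in teal and nuclei in red, with the group mean as a bar. Psmb6 nuclei are above cytoplasm in each muscle and Psmb7 runs lower, while TA cytoplasm 2 and 3 of Psmb5 lie near 13.77 and 13.55 and TA cytoplasm 1 at 11.92.

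In the base, 6 of 9 genes were higher and none was lower, with a median of 0.50. Psmd1 had the highest difference of all members, at 1.07 ± 0.15 (SE, adjusted p = 1.8e-05, limma), a fold of 2.10. Its levels were 8.10, 7.55 and 8.01 against 9.05, 8.87 and 8.78 in EDL and 7.67, 8.30 and 7.31 against 8.93, 8.78 and 9.00 in soleus. In TA they were 7.21, 7.84 and 8.22 against 8.78, 8.78 and 8.85. The fractions were apart in each muscle. All 3 non-ATPase subunits of the base tested, Psmd1, Psmd2 and the ubiquitin receptor Psmd4, were called higher.

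Of the 6 ATPases that unfold substrates, Psmc3, Psmc5 and Psmc6 were higher and Psmc1, Psmc2 and Psmc4 were not called. For Psmc2 and Psmc3 this depended on the probe. On the dimmer probes Psmc2 was called higher, at 0.43 (adjusted p = 0.014, limma), and Psmc3 was not called, at -0.13 (adjusted p = 0.56, limma). Psmc6 was at 7.95, 7.53 and 7.84 against 8.61, 8.35 and 8.50 in EDL, at 8.11, 8.01 and 7.39 against 8.93, 8.87 and 9.02 in soleus, and at 7.31, 6.51 and 6.74 against 7.87, 8.01 and 7.81 in TA. No array of the nuclei fell within the cytoplasm. The difference was 0.96 ± 0.13 (SE, adjusted p = 1.1e-05, limma). Psmc4 had the lowest of the ATPases, at 0.23 ± 0.17 (SE, adjusted p = 0.22, limma).

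In the lid, 6 of 8 genes were higher and 1 lower, with a median of 0.37. Psmd13 was the highest, at 0.83 ± 0.21 (SE, adjusted p = 0.0026, limma). It was at 7.65, 6.71 and 7.05 against 8.33, 8.25 and 8.26 in EDL and at 7.41, 7.77 and 7.67 against 8.50, 8.48 and 8.61 in soleus. The TA levels were 7.46, 9.05 and 9.41 against 8.99, 9.06 and 9.21, where the fractions overlapped. Psmd14, the deubiquitinase of the lid, was 0.44 ± 0.15 higher (SE, adjusted p = 0.014, limma).

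Psmd11, a lid subunit, was the lower one, at -0.48 ± 0.15 (SE, adjusted p = 0.012, limma), and at 0.28 without scaling. It was at 10.12, 10.21 and 9.78 in soleus cytoplasm and 8.90, 9.13 and 8.98 in soleus nuclei. In EDL it was at 9.15, 10.33 and 9.51 against 9.67, 8.86 and 9.53, and in TA at 9.01, 8.95 and 9.09 against 8.95, 8.84 and 8.98. Only the soleus fractions were apart. Side by side, core alpha and beta together held 13 higher and 3 lower of 17 with a median of 0.54, and base and lid together 12 higher and 1 lower of 17 with a median of 0.44. No test was run of a difference between classes.

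Of the 7 chaperones that assemble the core or the base, Psmg1, Psmg2 and Psmg4 were higher and none was lower. The share called higher was 42.9%, near the 39.4% of coding genes, and Psmg4 was called under 13 of the 28 alternatives. Psmg2 was at 7.63, 6.82 and 7.06 against 7.87, 7.79 and 7.69 in EDL and at 6.96, 7.95 and 7.09 against 7.85, 7.90 and 7.82 in soleus. In TA it was at 6.45, 6.09 and 6.39 against 7.75, 7.71 and 7.54. The fractions overlapped in soleus, through cytoplasm 2, and were apart in EDL and TA. The difference was 0.83 ± 0.14 (SE, adjusted p = 0.00011, limma). Psmd10, a base chaperone also known as gankyrin, was at -0.38 ± 0.19 (SE, adjusted p = 0.082, limma) on its brighter probe, and in EDL it was called lower, at -0.96. The dim probe of Psmd10 did not repeat the EDL call: it was well above background in EDL nuclei and on no EDL cytoplasm array. No EDL difference was tested on it. On the same probe, soleus nuclei were well above background on 3 of 3 arrays and soleus cytoplasm on 0. The soleus difference there, with no value for cytoplasm 3, was 1.05 ± 0.26 (SE, adjusted p = 0.0082, limma). The TA difference on that probe was called too, at 1.51 ± 0.26 (SE, adjusted p = 0.0006, limma), although no TA array of either fraction was well above background and cytoplasm 3 had no value. No fold is given from this probe.

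Among the activators, which open the core without ATP, Psme1, Psme2 and Psme4 were higher in nuclei and Psme3 was lower. Psme3, the activator of the nucleus, was at 14.46, 14.62 and 14.57 against 14.08, 14.19 and 14.11 in EDL. In soleus it was at 14.62, 14.32 and 14.45 against 14.21, 14.14 and 14.27, and in TA at 14.54, 14.27 and 14.73 against 13.65, 13.76 and 13.75. The fractions were apart in each muscle, and the difference was -0.49 ± 0.09 (SE, adjusted p = 0.0002, limma). Psme1 was at 9.48, 8.96 and 9.45 against 9.90, 9.94 and 9.94 in EDL and at 9.43, 9.71 and 9.30 against 9.86, 9.84 and 9.93 in soleus.

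In TA Psme1 was at 9.05, 10.47 and 10.55 against 10.77, 11.13 and 11.24. Nuclei were above cytoplasm in each muscle, and its difference was 0.68 ± 0.18 (SE, adjusted p = 0.0032, limma). The inhibitor Psmf1 was at -0.14 ± 0.19 (SE, adjusted p = 0.54, limma), with overlap in each muscle. Psmc3ip was at -0.26 ± 0.14 (SE, adjusted p = 0.12, limma).

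Each muscle was also read by its own difference, with the spread between arrays still taken over all 6 groups. In EDL 7 members were higher and 3 lower, in soleus 14 and 2, and in TA 15 and 1. Among coding genes 24.1% were higher and 20.2% lower in EDL. The soleus shares were 21.7% higher and 16.5% lower, and those of TA 25.2% higher and 24.5% lower. The median differences of the members were 0.36, 0.45 and 0.45. Counted as a single nuclear sample per muscle, no member was called in any of them (limma). With the replicate number as a block, shared by EDL and soleus and separate for TA, EDL had 7 higher and 1 lower. In EDL and soleus this block is the mouse pool, while in TA replicate 3 the fractions came from different mice. The EDL count of higher genes ran from 4 without EDL cytoplasm 2 to 19 without TA cytoplasm 1, and was 13 without soleus cytoplasm 2 and 11 without TA cytoplasm 3. The EDL count of lower genes was 0 without EDL cytoplasm 2 or EDL nuclei 3 and 1 without EDL nuclei 1 or 2. In soleus the count of higher genes was 8, 5, 9, 9 and 8 without cytoplasm 1, cytoplasm 3 and nuclei 1, 2 and 3, and 23 without TA cytoplasm 1.

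The fractions did not overlap, with nuclei above, for 27 of 47 members in EDL, 28 of 46 with all 6 values in soleus and 18 of 47 in TA. Nuclei lay below for 5, 5 and 2. Among coding genes, nuclei were above without overlap for 40.3%, 34.6% and 29.5%, and below for 27.2%, 22.2% and 27.7%. A positive difference in all 3 muscles was found for 35 genes, a negative one for 7 and mixed signs for 5. Psma3, Psmb4, Psmb6, Psmc6 and Psmd1 were called higher in all 3 muscles.

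The TA median moved with TA cytoplasm 1. Without it, on the arrays of 1 scan date, the TA median of the members was 0.06 in place of 0.45, with 12 higher and 2 lower. Of the 20 members called in EDL or soleus, whose arrays are not in that subset, 17 had the sign there that they had in EDL and soleus together, with no test of this count. Neither the calls nor the signs in that subset were counted among coding genes. On slide 4 alone, with 3 nuclear arrays and 1 cytoplasmic array, the median was 0.29. Of the 7 members called higher under each setting, Psma1 was at 0.88, Psmb6 at 0.81, Psmc6 at 1.27, Psmd1 at 0.78 and Psmg2 at 1.43 on the scan date, and these were called. Psma3, at 0.31 (adjusted p = 0.23, limma), and Psmb4, at 0.36 (adjusted p = 0.21, limma), were not called there. Psmb5 was at 0.01 and Psmd13 at -0.15 there, neither of them called. Of the 5 members called lower over the 3 muscles, Psme3 was called lower on the scan date as well, at -0.78. Psma6, Psmb1, Psmb7 and Psmd11 were at -0.17, -0.001, -0.14 and -0.10 there and were not called. On slide 4 alone Psmb1 was at 0.12.

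Whether the nuclei minus cytoplasm difference depended on the muscle was tested as an interaction. No member passed limma's adjusted threshold, 2 of 47 had an unadjusted p under 0.05, and 1.26% of coding genes were called. The smallest p-values were those of Psme2, Psma4 and Psmb8, with adjusted p of 0.11, 0.22 and 0.31 (limma). Psme2, partner of Psme1 in its activator ring, was at 10.14, 9.98 and 9.98 against 10.26, 10.38 and 10.26 in EDL and at 10.07, 10.49 and 9.95 against 10.45, 10.28 and 10.48 in soleus. Its TA levels were 9.42, 9.16 and 9.71 against 10.48, 10.64 and 10.54. The gap was widest in TA on this brighter probe, with 1.13 against 0.27 and 0.23. On the dimmer probe of Psme2 the differences were -0.01, -0.55 and 0.19 in EDL, soleus and TA. Psma4, of the alpha ring, was at 9.62, 9.74 and 9.62 against 10.30, 10.13 and 10.08 in EDL and at 9.97, 10.02 and 9.83 against 10.09, 10.02 and 10.20 in soleus. In TA it was at 9.29, 8.53 and 8.89 against 9.94, 9.92 and 9.72. The fractions of Psma4 overlapped in soleus and were apart in the other muscles. On its dimmer probe the differences were -0.04, -0.06 and 0.10 in EDL, soleus and TA. The interaction called 2 members without TA cytoplasm 1, 1 without TA cytoplasm 3 and 5 without scaling.

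Between muscles, over both fractions, soleus and EDL differed in no member at limma's adjusted threshold, with 2 of 47 at an unadjusted p under 0.05. Among coding genes 3.5% were higher in soleus and 1.63% lower. TA and EDL differed in 23 members, 14 higher in TA and 9 lower. Coding genes gave 17.8% higher and 20% lower. Both comparisons use the same EDL arrays. The largest were Psmg1, the core chaperone, at 1.57 ± 0.35 (SE, adjusted p = 0.0037, limma), and Psmc1, a base ATPase, at 1.55 ± 0.27 (SE, adjusted p = 0.00089, limma). Neither was called higher in TA on its other probe, given below. Psmb2 was the lowest, at -1.04 ± 0.21 (SE, adjusted p = 0.002, limma), and Psmf1 followed at -0.83 ± 0.24 (SE, adjusted p = 0.015, limma). On its brighter probe Psmg1 was at 7.11, 7.10 and 7.17 in EDL cytoplasm and 7.83, 7.93 and 7.90 in EDL nuclei, against 7.00, 9.68 and 9.79 and 9.06, 9.37 and 9.54 in TA. Psmc1 was at 11.40, 11.07 and 11.10 and at 11.38, 11.42 and 11.31 in EDL, against 11.23, 13.22 and 13.24 and 12.98, 13.13 and 13.19 in TA. Psmb2, a beta subunit, was at 9.93, 9.97 and 10.09 and at 10.21, 10.49 and 10.39 in EDL, against 9.75, 8.04 and 8.76 and 9.38, 9.48 and 9.46 in TA. The TA arrays of Psmb2 were below the EDL arrays of the same fraction without overlap, while TA cytoplasm 1 of Psmg1 was below EDL cytoplasm and that of Psmc1 lay within it. With a single nuclear sample per muscle, and with slide as a random block, no member was called between TA and EDL (limma).

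Muscle moved with slide here. TA cytoplasm 1 and the EDL cytoplasm arrays shared that slide. Of the 14 members called higher in TA, 3 were above the EDL mean on it, and their median was -0.12 in place of 1.04. Of the 9 called lower, 8 were below the EDL mean, with a median of -0.38 in place of -0.57. This comparison, of 1 array with 3, was added after seeing the data and has no test.

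**Figure D3:**
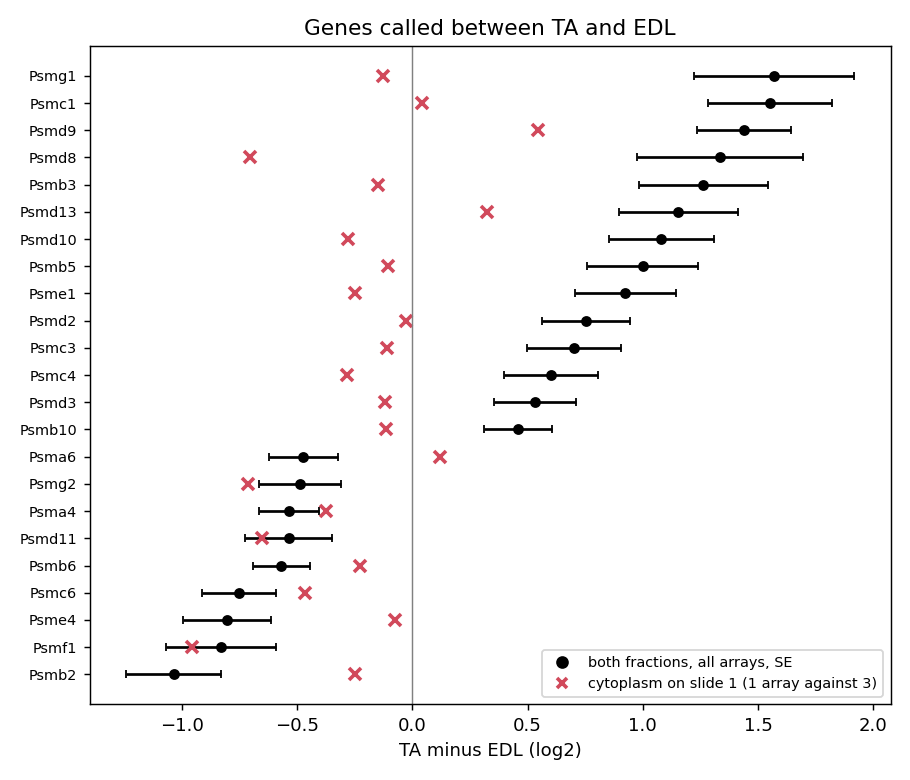
TA minus EDL (log2) of the 23 members called, as fitted over both fractions with SE bars (circles) and for TA cytoplasm 1 against the EDL cytoplasm mean on slide 1 (crosses). The crosses of the upper 14 genes have a median of -0.12 and those of the lower 9 of -0.38.

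The TA cytoplasm arrays also differed among themselves. Cytoplasm 2 and 3 were both at least 1 log2 unit above cytoplasm 1 for 14 of the 47 members (29.8%), and both that far below it for Psme4 and Psmg4. Among coding genes the shares were 13% above and 4.75% below. Psmg1 was at 7.00, 9.68 and 9.79 on TA cytoplasm 1, 2 and 3, and Psmc1 at 11.23, 13.22 and 13.24. Cytoplasm 1 and 2 share mouse 5, and cytoplasm 2 and 3 share a scan date. Whether mice or slides made the gap was not tested.

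The other probes of Psmg1, Psmc1 and Psmb5 did not show that gap, while those of Psmc3, Psmc2 and Psmd9 lay on average 1.69, 1.03 and 0.81 higher on cytoplasm 2 and 3 than on cytoplasm 1. By the same measure the dimmer probe of Psma4 was at 1.48 and the brighter one at -0.58. The pairs of Psmg1 and Psmc1 are given, in the first 30 of 60 bases and in lower case, since they differ in the same RNA. The Psmg1 probes lie at chr16:96201564-96201623 and chr16:96201644-96201703 on the minus strand of mm9. The Psmc1 probes lie at chr12:101361515-101361574 and chr12:101361283-101361342 on the plus strand.

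Psmg1 A_66_P134728: cctgttccagggggcagtcactgatgtttt
Psmg1 A_55_P2091671: acagaaattctgaagaagttgatgaccaca
Psmc1 A_55_P2033863: ttggtcattgtgccgtgctgctctctactc
Psmc1 A_55_P2009064: gctggcttgatggccttacggggacgcaga

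On A_55_P2091671 Psmg1 was at 5.25, 5.36 and 5.51 on the TA cytoplasm arrays, and cytoplasm 2 and 3 lay on average 0.19 above cytoplasm 1, against 2.74 on A_66_P134728. On A_55_P2009064 Psmc1 was at 9.75, 8.23 and 8.51, so cytoplasm 2 and 3 lay below cytoplasm 1 by a mean difference of -1.37, against 2.00 above it on A_55_P2033863. TA minus EDL for Psmc1 was 1.55 on A_55_P2033863 and -0.70 ± 0.21 (SE, adjusted p = 0.02, limma) on A_55_P2009064. For Psmg1 it was 1.57 on A_66_P134728 and -0.17 (adjusted p = 0.48, limma) on A_55_P2091671. The dimmer probes of Psmb5, Psmd9 and Psme4 were at 0.11, -0.04 and -0.50 and were not called. That of Psmc3 was called higher in TA like the brighter one, at 1.42. For Psme2 and Psmd12 only the dimmer probe was called, at 1.30 (adjusted p = 0.00043, limma) and -1.12 (adjusted p = 0.0045, limma). Their brighter probes were at -0.17 and 0.25. The 2 probes of Psma4 were, like those of Psmc1, called in opposite directions between TA and EDL, at -0.54 (adjusted p = 0.0061, limma) and 0.73 (adjusted p = 0.02, limma).

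**Figure D4:**
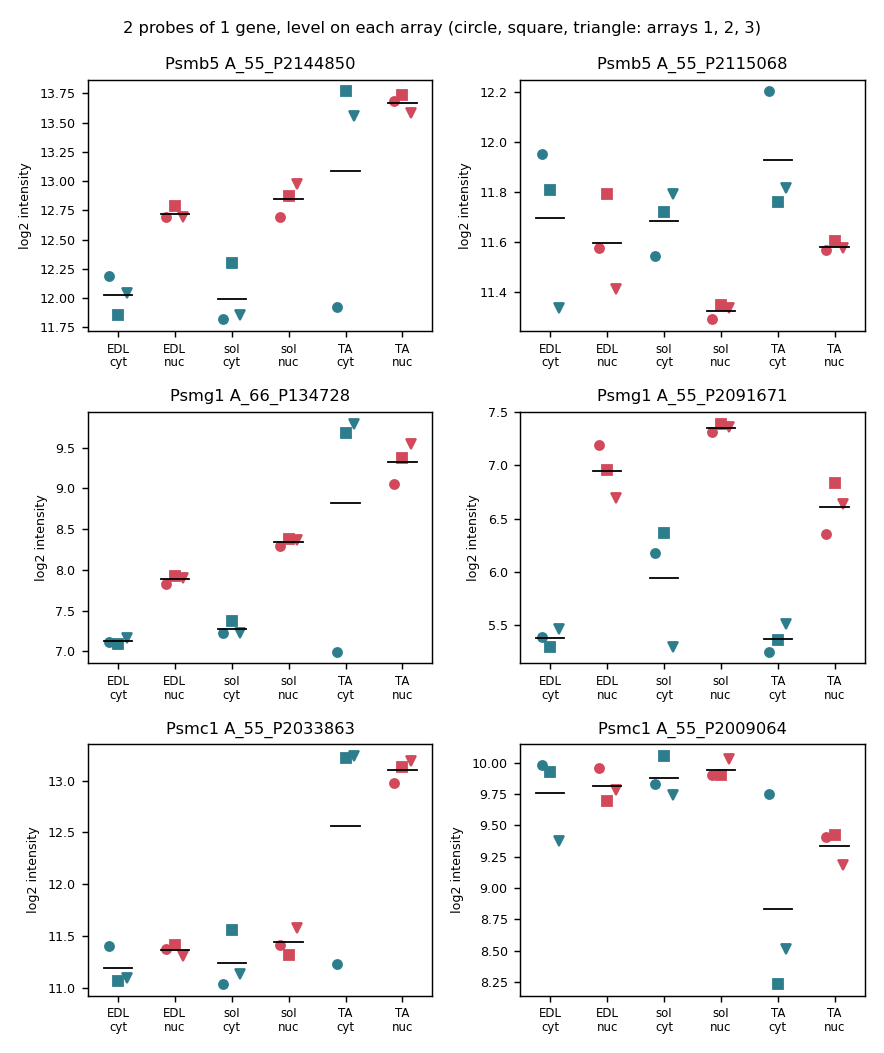
Level (log2 intensity) on each array for both probes of Psmb5, Psmg1 and Psmc1, cytoplasm in teal, nuclei in red, the group mean as a bar, each panel on its own axis. TA cytoplasm 2 and 3 are high on the left-hand probes, at 9.68 and 9.79 for Psmg1, while on the right-hand Psmg1 probe they are at 5.36 and 5.51, next to cytoplasm 1 at 5.25.

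Of the 11 genes with 2 probes, 10 had both tested for nuclei against cytoplasm. Both probes had the same sign for 6 and opposite signs for 4, namely Psma4, Psmb5, Psmc3 and Psme2. Psmg1 was higher in nuclei on both, at 0.78 ± 0.28 (SE, adjusted p = 0.024, limma) and 1.40 ± 0.14 (SE, adjusted p = 4.0e-07, limma). Among member probes whose 60 bases span an intron in mm9, 5 of 13 were higher in nuclei and 3 lower, with a median of 0.17. Among those in a single block, 29 of 44 tested were higher and 3 lower, with a median of 0.45. Over coding probes of the array, 40.7% of those spanning an intron and 41.7% of those in a single block were higher. No member probe shared 30 bases with a probe of another gene.

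Psma8, the alpha subunit of the testis, was well above background on 1 of the 3 soleus nuclear arrays and on no other array, so no difference is given.

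Other genes of the ubiquitin-proteasome route were also read. Of 23 tested, 14 were higher in nuclei, none was lower, and the median was 0.51. Ubb and Rps27a, which encode ubiquitin, were higher by 0.58 ± 0.11 and 0.53 ± 0.15 (SE). Pomp, the maturation factor of the core, was at 0.51 ± 0.14 (SE, adjusted p = 0.0052, limma). Adrm1, a ubiquitin receptor of the base, was at 0.25 ± 0.14 (SE, adjusted p = 0.13, limma). Nfe2l1, the transcription factor that raises proteasome genes when the proteasome is inhibited, was at 0.06 ± 0.20 (SE, adjusted p = 0.80, limma).

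Promoters of the members, 250 bases before to 50 after the start in RefSeq (GRCm38.p6), were held for 41 of the 49 genes. The motif TGACNNNGC, the core of the antioxidant response element that Nfe2l1 can bind, was searched on both strands. It lay in 14.6% of the members' promoters, against 14% of all genes with one. CCGGAAG, the core that ETS factors bind, lay in 36.6% against 9.93%. GAAA repeated after any pair of bases, as in interferon response elements, lay in 12.2% against 3.99%, and GGGCGG, which Sp1 binds, in 56.1% against 38.2%. The members with the GAAA repeat were Psmb3, Psmd4, Psmd9, Psme1 and Psmg4, and none of Psmb8, Psmb9 and Psmb10 held it. CCAAT was held by 36.6% against 41.1%, TATAAA by 9.76% against 15.7%, CACGTG by 9.76% against 8.09% and TGACTCA by 2.44% against 5.95%. These are the 8 motifs searched, with no test, and CCGGAAG was singled out after its share was seen.

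Among the 26 members with a promoter that were called higher, 5 held TGACNNNGC and 8 CCGGAAG. Those called lower with CCGGAAG were Psma6, Psmd11 and Psme3. Windows of 60 bases upstream of the start are printed for the catalytic subunits with TGACNNNGC, and for a member called higher and one called lower with CCGGAAG. They run along the gene's own strand, 5′ to 3′, with the motif in capitals, which is read on the other strand in Psmd11.

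Psmb5, chr14:54618008-54618067, minus strand: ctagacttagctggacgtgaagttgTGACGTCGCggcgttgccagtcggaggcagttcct
Psmb6, chr11:70525297-70525356, plus strand: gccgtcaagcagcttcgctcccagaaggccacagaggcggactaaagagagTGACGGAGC
Psmc6, chr14:45329698-45329757, plus strand: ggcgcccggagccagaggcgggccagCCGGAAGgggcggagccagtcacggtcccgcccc
Psmd11, chr11:80428555-80428614, plus strand: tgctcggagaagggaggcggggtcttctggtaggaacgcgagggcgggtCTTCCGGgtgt

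A match is a run of letters in this window, not a site that was measured.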

How the data were processed

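RNA of 18 samples, 6 from each muscle and 3 from either fraction of it, was hybridised to single-channel arrays. Per the file headers, the deposited intensity of each spot had been corrected for background by Feature Extraction 10.7.3.1, with no scaling between arrays, and coordinates are on mm9. The authors' normalized table of log2 values was deposited too, and holds 1 member probe.

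Spots not positive and significant, or marked as outliers, were set to missing. Log2 intensities were quantile-normalized and averaged per probe name. Group means were fitted with limma 3.58.1 in R 4.3.3, in place of the study's SAM, with Benjamini-Hochberg adjustment over all probes tested and a threshold of 0.05. Tests were 2-sided. A probe needed values on 2 of 3 arrays in each group compared. p-values measure the spread between these arrays, whose number limits the precision. The fit was tested on simulated data.

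Genes were named by this rule: the standard and immune catalytic subunits, the highest and lowest of each class, the smallest p-values in the muscle dependence, the largest changes between muscles, probes called in opposite directions, and untested genes. Those outside it were chosen after their values were seen. Members and lists were chosen with earlier results of these data known. Alternatives were scaling, background, filters, probe averaging, left-out arrays, nuclear arrays as 1 sample, the replicate block and slide. Same-mouse EDL and soleus arrays correlated at -0.111 to 0.101 in their deviations from group means. The labels give the same mice for the numbered pools of EDL and soleus, which is where their pairing comes from. Some genes of the pathway list are counted but not reported singly here.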

Additional observations from a re-analysis of the deposited data

How the results depend on the processing

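Counts are of members called by limma, given as higher and lower. Shares among coding genes were counted for the main fit only. With scaling to the 75th percentile, 8 were lower over the 3 muscles, soleus had 8 and 6, and TA 2 lower. Without scaling, the 3 muscles had 1 lower and a median of 1.14, EDL 35 and 0 (median 1.06), soleus 41 and 0 (median 1.60) and TA a median of 0.81. In that setting the muscle dependence called 5, TA against EDL 9 higher, and Psma6 (0.30), Psmb1 (0.12), Psmb7 (0.32), Psmb9 (0.73) and Psmd11 (0.28) reversed. With normexp, EDL had 14 and 5, soleus 4 lower, TA 2 lower and the muscle dependence 1. Requiring spots well above background gave 16 higher in EDL and 23 in soleus (median 0.61). No filter on dim spots gave EDL 12 and 1.

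Taking nuclear arrays as 1 sample left 7 and 0 over the 3 muscles, and 0 and 0 in EDL, soleus, TA and TA against EDL. With slide as a random block, the 3 muscles had 13 and 0 (median 0.23), EDL 0 and 0 (median 0.12), soleus 1 and 0 (median 0.23) and TA against EDL 0 and 0, and Psmg1 reversed at -0.013. TA arrays of 1 scan date gave 2 lower and a median of 0.062. The cause of these changes was not tested. With the replicate block, 1 member was lower in EDL, 32 were higher over the 3 muscles, 15 in soleus and 13 in TA, and no gene named by the rule changed its call over the 3 muscles or in the muscle dependence. TA against EDL could not be fitted with it.

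Leaving out each array in turn gave 26 to 32 higher and 5 to 7 lower over the 3 muscles. It gave 4 to 19 higher and 0 to 4 lower in EDL, 5 to 23 higher in soleus, 1 to 3 lower in TA with a TA median of 0.062 to 0.61, and 0 to 2 for the muscle dependence. The authors' table holds 1 member, so counts could not be made from it. In all, 69 counts or medians moved and 408 did not. The 2 alternatives on the slides of TA were chosen after seeing the data.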
